A study of Bos taurus with 48 samples.

Results

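SELE and PLAC8 were followed in subcutaneous adipose tissue of Norwegian Red heifers, in every one of 48 RNA samples. Both are genes whose mRNA, at 12 months of age, was higher on a high-energy than on a low-energy diet when protein was low, and lower when protein was high. The 2 genes were taken by symbol from the study's lists of genes that differed between diets, PLAC8 from the low-protein list and SELE from the high-protein list, and were found in the count files by their Ensembl identifiers among 24616 gene rows. SELE is ENSBTAG00000007307 and PLAC8 is ENSBTAG00000031750. Since both were selected on their 12 month values, the diet differences of that age are given here as a description without a test. Tests were kept for month 7 of gestation, for the genetic group and for the relation of a heifer's levels at both ages. The change between both ages, which uses the same 12 month values, is described without a test as well. No other selectin, selectin ligand or PLAC8 family gene and none of 18 adipogenic and thermogenic regulators could be matched to an identifier.

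SELE encodes E-selectin, an adhesion molecule on the surface of activated endothelial cells that catches passing leukocytes by their sialylated and fucosylated sugars and lets them roll along the vessel wall. Its transcription is switched on by inflammatory cytokines through NF-kB and is low in resting endothelium of most tissues. PLAC8 encodes a small cysteine-rich protein, also called onzin, which is expressed in many leukocytes and in placenta and has been tied to differentiation of brown and white adipocytes in mice. Cattle carry neighbouring PLAC8 copies, PLAC8A and PLAC8B, which both have PLAC8 as an older name in the RefSeq gene table, so which copy the PLAC8 row stands for could not be told and its reads may be shared with the other.

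The study asked how dietary energy and protein density alter gene expression in adipose tissue of growing heifers. The diets started at an age of 3 months and ended once a heifer was found pregnant, and each heifer received a low-protein high-energy (LPHE), low-protein low-energy (LPLE), high-protein high-energy (HPHE) or high-protein low-energy (HPLE) diet, with 6 heifers per diet, 3 from a line selected for high milk yield (HMY) and 3 from a line selected for low clinical mastitis (LCM). Biopsies were taken from each of the 24 heifers on 2 occasions, when aged 12 months and during month 7 of gestation, the latter after the experimental diets had ended, and breeding was aimed at 400 kg of body weight, so that slower-growing heifers conceived at a greater age. Between 14815595 and 61027456 reads per sample fell on genes.

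SELE at 12 months was lowest in HPHE heifers and varied widely in the other diets. These are bulk tissue samples, in which fewer cells of a type and less RNA per cell cannot be told apart. Values are CPM, a gene's reads scaled to the total of reads on genes, after TMM normalization, which corrects for differences in library composition. In the LPHE heifers SELE had 33.2, 4.69, 5.68, 9.29, 26.6 and 4.93 CPM (heifers 3, 5, 12, 16, 20 and 24). The LPLE heifers had 6.80, 0.592, 9.41, 4.34, 13.02 and 0.339 CPM (heifers 4, 8, 10, 14, 18 and 22). So 2 LPHE heifers lay above every LPLE heifer and 3 LPLE heifers below every LPHE heifer, and the remaining values overlapped.

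At high protein the order turned. HPHE heifers had 4.10, 0.501, 0.524, 1.499, 1.60 and 3.17 CPM of SELE (heifers 2, 6, 11, 15, 19 and 23). HPLE heifers had 49.6, 10.1, 4.99, 30.5, 3.50 and 2.87 CPM (heifers 1, 7, 9, 13, 17 and 21). The ranges of both diets overlapped, with 4 HPLE heifers above every HPHE heifer. All 6 HPHE heifers lay below all 6 LPHE heifers, the only pair of diets differing in 1 factor whose SELE values did not overlap at either age. That separation belongs to the samples on which SELE was chosen, and how many of all genes separate these diets was not counted. The gap was narrow, with 4.10 CPM in the highest HPHE heifer and 4.69 in the lowest LPHE heifer. The share of genes called for HPHE against LPHE, 0.0150% of the 13339 fitted, is another measure and does not stand in for that count.

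Ordered by mean level at 12 months, SELE was 16.9 ± 19.1 CPM in HPLE (SD, n = 6), 14.1 ± 12.6 in LPHE, 5.75 ± 5.004 in LPLE and 1.90 ± 1.45 in HPHE, and each of these diets overlapped with the next. The medians of HPLE, LPHE and LPLE were close to each other, 7.52, 7.48 and 5.57 CPM, and that of HPHE was 1.55 CPM. Raw counts behind these levels ran from 5 in 1 LPLE heifer to 1583 in 1 LPHE heifer. The fitted log2 fold change of SELE was 1.40 (SE 0.72) for LPHE-LPLE and -3.12 (SE 0.76) for HPHE-HPLE, so the energy effects differed by 4.52 (SE 1.04) on the log2 scale. Without heifer 13, the HPLE heifer at 30.5 CPM, the HPHE-HPLE value was -2.44, and without heifer 3 the LPHE-LPLE value was 1.11.

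**Figure D1:**
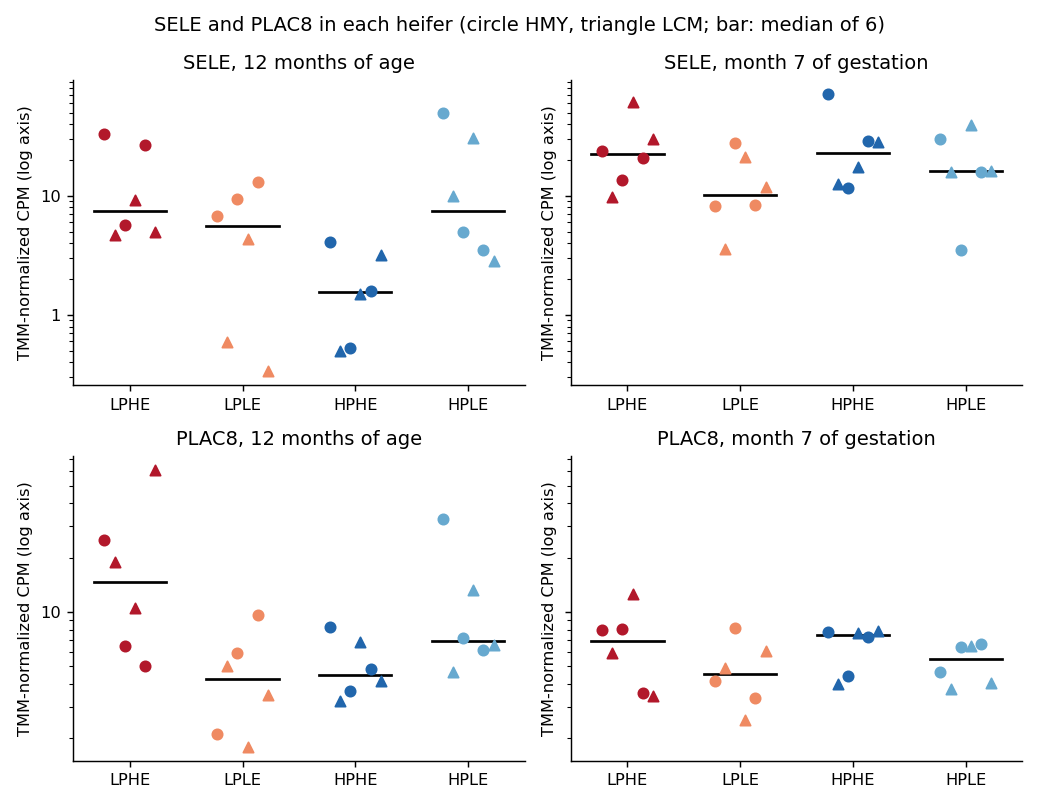
TMM-normalized CPM of SELE (top) and PLAC8 (bottom) on a log axis, for each of 6 heifers per diet at 12 months of age (left) and in month 7 of gestation (right); circles are HMY and triangles LCM heifers, and black bars are medians. At 12 months SELE in HPHE heifers stays between 0.501 and 4.10 CPM, and in gestation the diets share 1 range for both genes.

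PLAC8 at 12 months was highest in LPHE heifers. The LPHE heifers had 24.9, 18.96, 6.46, 10.5, 5.01 and 61.3 CPM, in the same order of heifers as for SELE, and the LPLE heifers 2.12, 5.02, 5.95, 1.79, 9.58 and 3.45 CPM. In 32 of the 36 pairs of an LPHE and an LPLE heifer, PLAC8 was higher in the LPHE heifer. HPHE heifers lay within a narrow band of 8.30, 3.23, 3.67, 6.86, 4.85 and 4.15 CPM, and HPLE heifers had 32.6, 4.64, 7.23, 13.2, 6.17 and 6.55 CPM. Only heifers 1 and 13 of HPLE stood above every HPHE heifer.

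Mean PLAC8 was 21.2 ± 21.1 CPM in LPHE (SD, n = 6), 11.7 ± 10.6 in HPLE, 5.18 ± 1.99 in HPHE and 4.65 ± 2.90 in LPLE, and neighbours in this order overlapped. The fit gave log2 fold changes of 2.24 (SE 0.58) for LPHE-LPLE and -1.16 (SE 0.55) for HPHE-HPLE, which differed by 3.40 (SE 0.80). Single heifers carried much of the PLAC8 values. Without heifer 1 the HPHE-HPLE value was -0.53, and without heifer 24 the LPHE-LPLE value was 1.54. Unlike SELE, PLAC8 differed mainly in the height of LPHE and, through heifers 1 and 13, of HPLE, while HPHE and LPLE had similar medians of 4.50 and 4.24 CPM.

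These values are read beside the rest of the transcriptome. At 12 months 9.12% of the 13339 genes fitted were called for LPHE-LPLE at a false discovery rate (FDR) under 0.1 by edgeR's likelihood ratio test, 0.0975% for HPHE-HPLE and 0.0750% for the difference of the energy effects. The 10 genes of the last count include SELE and PLAC8, which the choice of both fixes. The gene just inside that threshold was CAPN5, at -0.90 (SE 0.23) on the log2 scale, and the gene just outside was IDO1, at 4.75 (SE 1.26). By edgeR's quasi-likelihood F test no gene was called for the difference of the energy effects or for HPHE-HPLE, where 557 and 1128 genes had an unadjusted p under 0.05 by the likelihood ratio test, while DESeq2 called 10 and 25 genes. The spread between heifers fed alike was unusually large for both genes. The biological coefficient of variation, the SD between heifers as a share of the mean, was 84.1% for SELE and 65.1% for PLAC8 at 12 months, against a median of 22.4% over all genes, which put them at the 98.8th and 96.8th percentile.

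In month 7 of gestation, the samples that the choice of genes did not use, neither gene showed an energy effect past the threshold, and no turn with protein was detectable. SELE in LPHE heifers was 23.9, 9.87, 13.6, 61.6, 20.6 and 30.2 CPM, and in LPLE heifers 8.25, 3.59, 27.9, 21.05, 8.32 and 11.9 CPM. In HPHE heifers it was 71.9, 12.7, 11.6, 17.5, 28.9 and 28.5 CPM, and in HPLE heifers 30.1, 15.8, 3.54, 39.7, 15.8 and 16.2 CPM. All 4 diets overlapped, and HPHE, lowest at 12 months, now had the highest mean.

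The order of mean SELE in gestation was 28.5 ± 22.5 CPM in HPHE (SD, n = 6), 26.6 ± 18.6 in LPHE, 20.2 ± 12.7 in HPLE and 13.5 ± 9.15 in LPLE. SELE was 0.97 higher on the log2 scale in LPHE than in LPLE heifers (SE 0.55, 95% interval -0.10 to 2.05, edgeR FDR 0.469), and the exact two-sided permutation test of 6 against 6 heifers gave p = 0.102. For HPHE-HPLE the log2 difference was 0.51 (SE 0.55, edgeR FDR 0.927, exact permutation p = 0.431). Both energy effects of SELE thus had a positive sign in gestation, with 0.47 between them (95% interval -1.06 to 1.996, edgeR FDR 0.9999). Heifer 2, at 71.9 CPM, carried the HPHE-HPLE value, which was -0.03 without that heifer, and without heifer 16, at 61.6 CPM, the LPHE-LPLE value was 0.53.

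PLAC8 in gestation ranged from 2.52 to 12.5 CPM over all 24 heifers, with 1 value above 10 CPM. Its means were 6.91 ± 3.41 CPM in LPHE (SD, n = 6), 6.49 ± 1.77 in HPHE, 5.32 ± 1.34 in HPLE and 4.85 ± 2.02 in LPLE, and all neighbours overlapped. The log2 fold change was 0.51 (SE 0.32, 95% interval -0.10 to 1.13, edgeR FDR 0.527, exact permutation p = 0.258) for LPHE-LPLE. For HPHE-HPLE it was 0.29 (SE 0.31, edgeR FDR 0.927, exact permutation p = 0.253). The energy effects on PLAC8 differed by 0.22 (95% interval -0.65 to 1.09, edgeR FDR 0.9999). The 12 month values of both genes are those on which they were selected, so no comparison of the diet effects between ages was made, and age, pregnancy and the end of the diets cannot be told apart in this design.

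**Figure D2:**
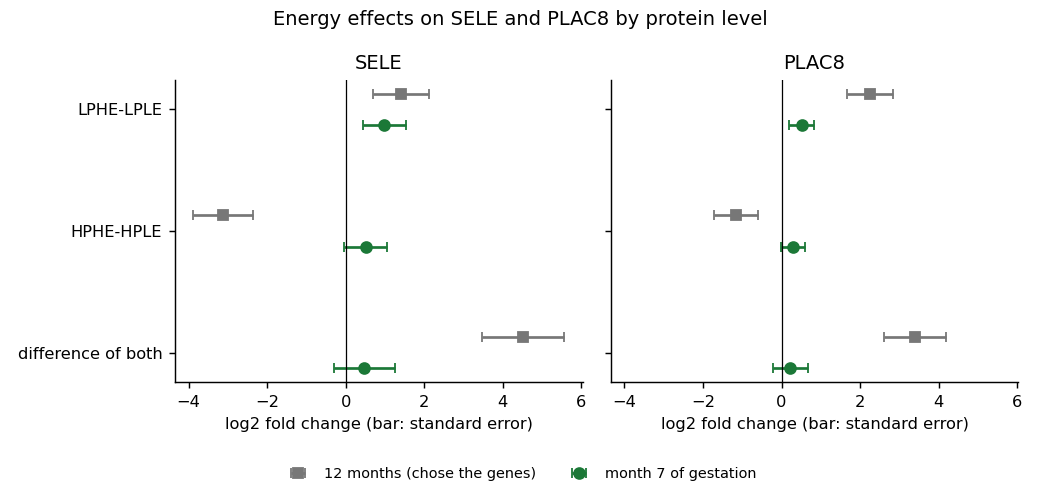
Log2 fold change of SELE (left) and PLAC8 (right) between high- and low-energy diets at low protein (LPHE-LPLE), at high protein (HPHE-HPLE) and the difference of both, with bars for the standard error; grey squares are 12 months, the samples on which both genes were selected, and green circles month 7 of gestation. The difference is 4.52 and 3.40 at 12 months and 0.47 and 0.22 in gestation.

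Over all genes, LPHE-LPLE had fewer calls in gestation than the 9.12% of 12 months, and HPHE-HPLE had more than its 0.0975%. Of 13403 genes fitted, 1.50% were called for LPHE-LPLE, 0.933% for HPHE-HPLE and 0.00746% for the difference of the energy effects, with SELE and PLAC8 in none of them. The protein effects were small for both genes. SELE was 0.11 higher in HPHE than in LPHE heifers (SE 0.55, edgeR FDR 1, exact permutation p = 0.920) and 0.58 higher in HPLE than in LPLE heifers (SE 0.54, edgeR FDR 0.9996, exact permutation p = 0.394). PLAC8 differed by -0.09 (SE 0.31, edgeR FDR 1) and 0.13 (SE 0.32, edgeR FDR 0.9996) in the same comparisons. Neither protein comparison called a gene in gestation (0% of 13403), with 228 and 383 genes at an unadjusted p under 0.05 by the likelihood ratio test, 0 and 0 called by quasi-likelihood and 1 and 4 by DESeq2.

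The genetic group showed no difference past the threshold for either gene. SELE at 12 months ranged from 0.524 to 49.6 CPM (median 6.24) in the 12 HMY heifers and from 0.339 to 30.5 CPM (median 3.76) in the 12 LCM heifers. Fitted with diet, SELE was 1.23 higher in HMY heifers on the log2 scale (SE 0.53, 95% interval 0.20 to 2.27), which did not pass after adjustment (edgeR FDR 0.381). With all 48 samples in 1 fit, where both ages share 1 genetic term, the value was 0.59 (edgeR FDR 0.410). Within diets the log2 difference between HMY and LCM heifers was 1.45 in LPHE, 2.60 in LPLE, 0.14 in HPHE and close to 0 in HPLE, and whether it differed between diets was not tested. In LPLE, though in no other diet, all 3 HMY heifers were above all 3 LCM heifers. With so few heifers a full separation can readily arise by chance, and how many of all genes show one was not counted. In gestation the SELE value was -0.03 (SE 0.39, edgeR FDR 0.993). PLAC8 differed between genetic groups by 0.17 (SE 0.40, edgeR FDR 0.896) at 12 months and by 0.09 (SE 0.22, edgeR FDR 0.967) in gestation. The genetic group called 0.00750% of genes at 12 months and 0.172% in gestation.

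SELE was higher in month 7 of gestation than at 12 months in 19 of 24 heifers. Averaged over the 4 diets, the log2 difference was 1.60 (SE 0.35), a fold change of 3.03, and the mean change by diet was 1.09 in LPHE, 1.52 in LPLE, 3.54 in HPHE and 0.70 in HPLE. Time called 47.7% of 13718 genes, so a call in this comparison was common. SELE was higher in gestation in all 6 HPHE heifers, by 2.98 to 3.98 on the log2 scale, against 4 of 6 in LPHE, 5 of 6 in LPLE and 4 of 6 in HPLE. The 5 heifers with less SELE in gestation included the highest one of 12 months in LPHE, LPLE and HPLE. The low 12 month values of HPHE, on which SELE was selected, enter the average over diets.

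For PLAC8 the log2 difference averaged over diets was -0.68 (SE 0.23), with mean changes by diet of -1.18 in LPHE, -0.77 in HPLE, 0.16 in LPLE and 0.33 in HPHE. The high 12 month values of LPHE, on which PLAC8 was selected, enter this average. Counted by heifer PLAC8 was lower in 12 and higher in 12, with a median log2 change of 0.03. Without heifer 24 the fitted change was -0.46, and with each heifer as its own block it was -0.43 (SE 0.21). The lowest log2 changes were -3.98 in LPHE, where heifer 24 went from 61.3 to 3.42 CPM, and -2.69 in HPLE, where heifer 1 went from 32.6 to 4.64 CPM. In HPHE 5 of 6 heifers had more PLAC8 in gestation, by up to 0.84.

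**Figure D3:**
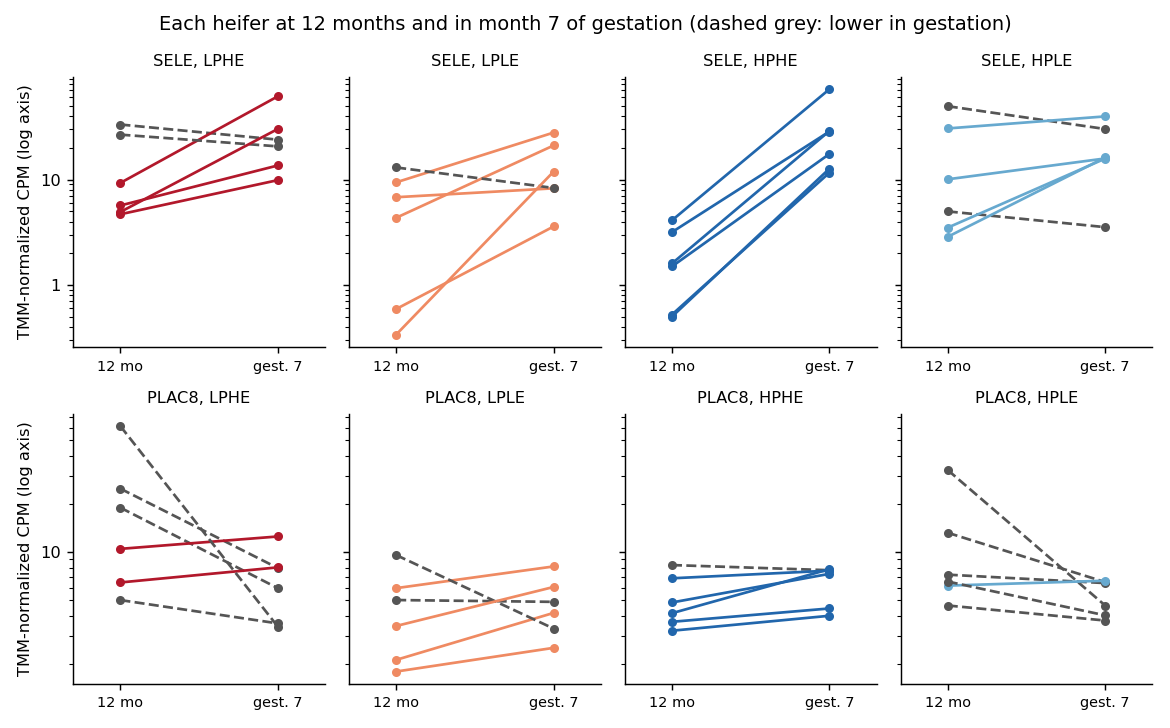
TMM-normalized CPM of SELE (top) and PLAC8 (bottom) on a log axis in each heifer at 12 months and in month 7 of gestation, 1 line per heifer and 1 panel per diet; dashed grey lines mark heifers with a lower value in gestation. SELE is higher in gestation in 19 of 24 heifers and PLAC8 in 12 of 24.

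The SD of log2 CPM between heifers fed alike, pooled over diets, was 1.39 at 12 months and 1.01 in gestation for SELE, and 0.94 and 0.51 for PLAC8; whether it differed between ages was not tested. Within HPHE the SD of SELE was 0.91 and 0.96. The biological coefficient of variation in gestation was 64.5% for SELE and 37.1% for PLAC8, against a median of 19.7%. No relation between a heifer's levels at both ages passed its test, in which heifers were shuffled across diets. The diet differences of 12 months, on which both genes were selected, thus enter the r and p values of these relations. For SELE the correlation of both was r = 0.365 over 24 heifers (permutation p = 0.0790, adjusted over 3 relations p = 0.128; Spearman's rho 0.298, permutation p = 0.155), and without the 2 heifers farthest from the median it was 0.322. After the diet means were subtracted r was 0.520 for SELE and 0.049 for PLAC8, which was not tested. For PLAC8 it was r = 0.149 (permutation p = 0.485, adjusted p = 0.485; rho 0.237, permutation p = 0.261), and 0.4996 without the 2 farthest heifers.

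No relation between SELE and PLAC8 passed its test in gestation. In gestation their log2 CPM had r = 0.359 over 24 heifers (permutation p = 0.0854, adjusted p = 0.128; rho 0.334, permutation p = 0.112), 0.480 without the 2 farthest heifers and 0.248 after the diet means were subtracted. At 12 months r was 0.505, given without a test, and within diets it ran from -0.27 in LPHE to 0.83 in HPLE. In LPHE the highest SELE was in heifer 3 and the highest PLAC8 in heifer 24, which had 4.93 CPM of SELE. In HPLE heifers 1 and 13 were the highest for both genes. By the lower of its correlations at both ages, PLAC8 came 379th among 13134 genes in likeness to SELE, and SELE came 121st in likeness to PLAC8.

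The 5 genes most like SELE by this measure, over 24 heifers at each age, carry no symbol in the lists used here. The first was ENSBTAG00000003220, with r = 0.77 at 12 months and 0.65 in gestation. The first with a symbol, in 65th place, was CD180 (r = 0.47 and 0.49), a Toll-like receptor relative on B cells and other leukocytes. For PLAC8 the first was ENSBTAG00000037634, with r = 0.92 and 0.78, followed by CD180 with 0.85 and 0.72. UBD (r = 0.64 and 0.66), a ubiquitin-like protein induced by cytokines, CXCL10 (0.86 and 0.62), an interferon-induced chemokine that draws T cells, and ZBP1 (0.89 and 0.59), a sensor of nucleic acids, were the next with a symbol. IRG1, a macrophage enzyme that makes itaconate, followed in 37th place with 0.67 and 0.49. These points share libraries and depth.

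Of 53 interferon-induced genes listed, 7 could be matched to an identifier, all of them because the study had named them for LPHE-LPLE on these samples, so that their direction there is no independent evidence. PLAC8 followed these 7 genes closely at 12 months, with r from 0.64 for UBD to 0.91 for IDO1, an enzyme of tryptophan breakdown, and a median of 0.861, against a median of -0.02 over all genes. After subtracting the diet means, the median was still 0.868. SELE had a median r of 0.450 with the same genes, and 0.328 with diet means removed. In gestation the medians were 0.357 for PLAC8, with r from -0.17 to 0.66, and 0.268 for SELE, with r from 0.23 to 0.37. With diet means removed the gestation medians were 0.334 for PLAC8 and 0.254 for SELE.

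**Figure D4:**
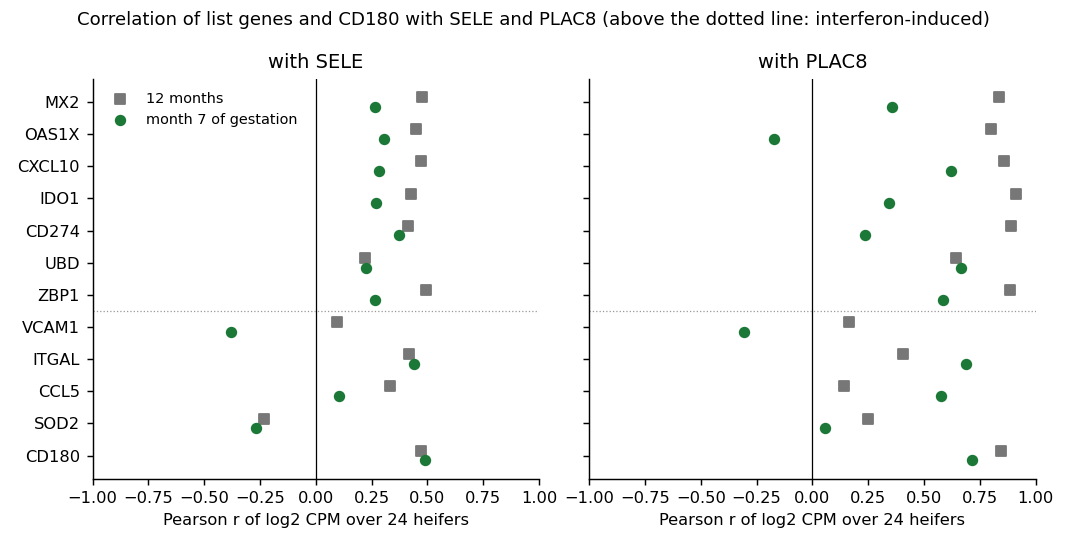
Pearson r of log2 CPM over 24 heifers between SELE (left) or PLAC8 (right) and 7 interferon-induced genes (above the dotted line), 4 other list genes and CD180; grey squares are 12 months and green circles month 7 of gestation. At 12 months PLAC8 lies between 0.64 and 0.91 with the interferon-induced genes.

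The same heifers were high in PLAC8 and in interferon-induced genes. Heifer 24, with the highest PLAC8 of LPHE at 12 months, was also the highest of its diet for 6 of the 7 genes, with 478 CPM of MX2, an antiviral GTPase, where the median of all heifers was 3.14 CPM. In HPLE heifer 1, with 231 CPM of MX2, was the highest for PLAC8 and for 6 of the 7, and in LPLE heifer 18, with 154 CPM, was the highest for PLAC8, SELE and 6 of the 7. In HPHE heifer 2 was the highest for PLAC8, SELE and 3 of the 7. UBD was the gene that fell outside this order in LPHE, LPLE and HPLE. For SELE in LPHE the pattern was absent, since heifer 3, its highest, was the highest for none of the 7.

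The medians over all heifers at 12 months and in gestation were 3.14 and 2.88 CPM for MX2 and 5.16 and 5.90 CPM for UBD. PLAC8 had medians of 6.32 and 6.00 CPM. In gestation MX2 reached at most 23.1 CPM, in heifer 16, which also had the highest PLAC8 of that age (12.5 CPM) and the highest SELE of LPHE (61.6 CPM). The heifer with the highest PLAC8 of its diet was the highest for 4 of the 7 genes in LPHE, 0 in LPLE, 1 in HPHE and 3 in HPLE. ZBP1 reached 92.5 CPM at 12 months and 6.73 CPM in gestation. The 12 month values through which the 7 genes were matched enter their change with time, which is therefore given without a test. Of the 7 genes 6 had a negative log2 change with time. The lowest were -2.91 (SE 0.57) for MX2, -1.58 (SE 0.34) for ZBP1, -1.40 (SE 0.35) for IDO1 and -1.33 (SE 0.32) for OAS1X, an oligoadenylate synthetase. With each heifer as its own block these 4 values were -1.11, -0.71, -0.65 and -0.74.

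**Figure D5:**
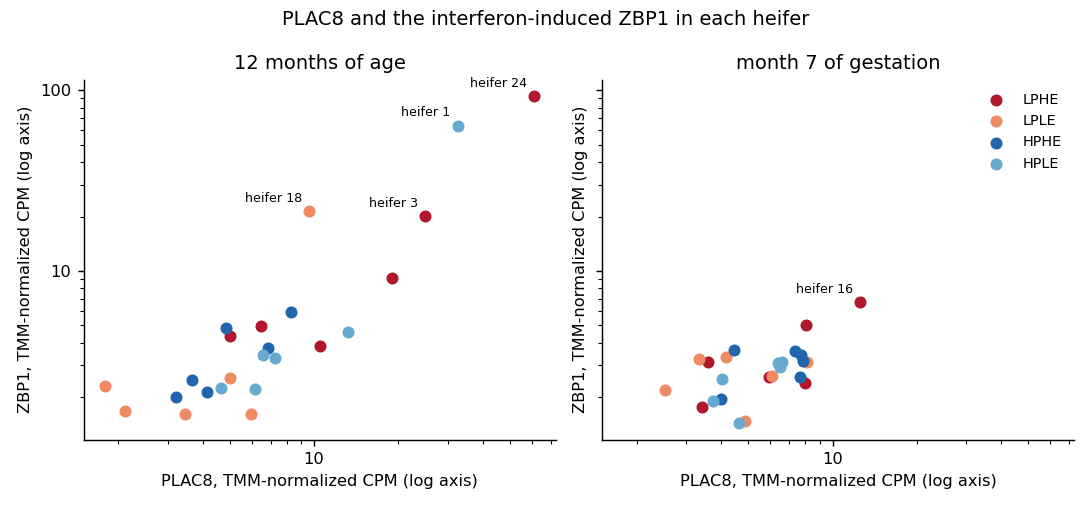
PLAC8 (horizontal) and ZBP1 (vertical) in TMM-normalized CPM on log axes, 1 point per heifer coloured by diet, at 12 months (left) and in month 7 of gestation (right). Heifers 24 and 1 lie highest for both genes at 12 months, with 61.3 and 32.6 CPM of PLAC8, and heifer 16 in gestation with 12.5 CPM.

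The turn of the energy effect with protein was shared in sign by these genes, and single heifers carried much of it. Without heifer 1 of HPLE the 12 month difference fell from 5.83 to 2.39 for MX2 and from 4.30 to 2.10 for ZBP1. It fell from 4.75 to 2.56 for IDO1 and from 3.38 to 1.83 for OAS1X. Without heifer 24 of LPHE it was 3.19 for CXCL10 and 2.18 for CD274, and without heifer 13 of HPLE 2.11 for UBD. Medians were higher in HPLE than in HPHE, with 3.09 and 2.67 CPM for MX2, except for CXCL10 (1.04 and 1.07 CPM). At 12 months all 7 were called higher in LPHE than in LPLE heifers (746 of 13339 over all genes), as the way they were matched fixes, and 2 of the 7 by quasi-likelihood. Their median log2 fold change there was 2.68 against -0.02 over all genes. For HPHE-HPLE all 7 had a negative log2 fold change (median -1.34, none of the 7 called, lowest edgeR FDR 0.589, none called by quasi-likelihood). The 3 ranked first by p for LPHE-LPLE were UBD at 1.65 (SE 0.42), CXCL10 at 3.42 (SE 0.89) and IDO1 at 3.06 (SE 1.01). Their FDRs are not given, since these genes were matched through that contrast. The difference of the energy effects contains the LPHE-LPLE values through which the 7 were matched. For it 2 of the 7 were called (0.0750% over all genes), UBD at 2.47 (SE 0.60, edgeR FDR 0.0728) and CXCL10 at 4.76 (SE 1.19, edgeR FDR 0.0929). CD180, picked for its likeness to PLAC8, was called at 3.44 (SE 0.76, edgeR FDR 0.0372). These 3 calls are thus no independent evidence. By quasi-likelihood none of these 3 was called (FDR 0.917, 0.999 and 0.917). In gestation none of the 7 was called in an energy contrast, the lowest edgeR FDR being 0.219.

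Genes of the adhesion and cytokine lists differed in how they went with SELE. Of 20 endothelial adhesion molecules and leukocyte integrins, 2 could be matched: VCAM1, which like E-selectin is displayed by activated endothelium, and ITGAL, a leukocyte integrin chain. VCAM1 ranged from 62.8 to 323 CPM at 12 months and was highest in an HPHE heifer, the diet in which SELE was lowest, and its r with SELE was 0.09 at 12 months and -0.38 in gestation. ITGAL had r = 0.42 and 0.44 with SELE. For LPHE-LPLE at 12 months the log2 fold change was 0.78 (SE 0.23) for VCAM1 and 0.99 (SE 0.37) for ITGAL, given without a test since both could be matched only through the study's list for that contrast. VCAM1 rose with time by 0.63 (SE 0.13), a change that uses the same 12 month values and is given without a test. Of 35 cytokine and NF-kB-induced genes 2 were matched, SOD2, a mitochondrial superoxide dismutase, and the chemokine CCL5. Matched in the same way, they had log2 fold changes of 0.66 (SE 0.22) and 1.21 (SE 0.43) for LPHE-LPLE, and r with SELE of -0.23 and 0.33 at 12 months. SOD2 fell by 0.33 with time (SE 0.10), given without a test for the same reason. None of these 4 genes was called for HPHE-HPLE, for the difference of the energy effects or for an energy contrast in gestation by either edgeR test.

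Markers of the cells in the biopsies could be checked only in part, since 9 of 70 could be matched and none of blood endothelium, T cells, B cells, macrophages, neutrophils, cytotoxic cells or red blood cells. The adipocyte gene CIDEC stood at 782 to 2727 CPM at 12 months, as in fat tissue. The skin epithelium gene DSP reached 66.9 CPM in heifer 24 at 12 months, the heifer with the highest PLAC8, and at most 9.02 CPM in LPLE, 3.44 in HPHE and 5.39 in HPLE; its r over 24 heifers was 0.50 with PLAC8 and 0.41 with SELE. In gestation DSP reached 77.6 CPM in heifer 9 of HPLE, which had 6.40 CPM of PLAC8 and 3.54 CPM of SELE. At 12 months the summed level of 4 skeletal muscle genes ran from 0.266 to 0.539 CPM in LPHE heifers, from 0.474 to 53.4 in LPLE, from 0.376 to 116 in HPHE and from 0.217 to 104 in HPLE. Of the 4 genes 3 (ACTA1, MYL1 and MYH2) were called lower in LPHE than in LPLE heifers (470 of 13339 over all genes). They could be matched only through the study's lists from these samples, so these calls are no independent evidence. At 12 months r with SELE or PLAC8 lay between -0.26 and -0.12 for ACTA1, CKM and MYH2. In gestation these r values lay between 0.016 and 0.192, and the muscle sum reached 283 CPM in HPHE. At 12 months the adipocyte genes CIDEC and LEP summed to 1983 to 3275 CPM in LPHE and 858 to 2505 in LPLE heifers. At high protein their sum was 2123 to 3269 CPM in HPHE and 1238 to 2759 in HPLE heifers. The lymphatic genes LYVE1 and FLT4 summed to 13.2 to 57.5 CPM in LPHE and 27.4 to 246 in LPLE. Their sum was 16.1 to 40.6 CPM in HPHE and 29.9 to 59.0 in HPLE. The adipocyte and lymphatic genes were likewise matched only through the study's lists. The part of these cells in the SELE and PLAC8 values was not tested.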

How the data were processed

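Trimming by the authors was done in cutadapt 1.3, alignment in TopHat2 2.0.12 against cattle build UMD3.1, and counting in HTSeq on Ensembl genes; the deposited values are raw counts, 1 file per sample. The 5 summary rows of each file (38.8 to 61.0% of its total) name no gene and were left out. Symbols came from the study's supplementary tables (1006 of 24616 rows). Genes reaching a CPM of 2 in 3 or more samples were fitted at each age with edgeR 4.0.16 in R 4.3.3 (TMM, estimateDisp, diet and genetic group, likelihood ratio test), adjusted by Benjamini-Hochberg over all genes and called at an FDR under 0.1. Standard errors are those implied by the likelihood ratio statistic. Time was fitted on all 48 samples. Heifer numbers pair both ages, being the same animal (deviations from the diet mean correlated above 0.1 in 20 of 24 heifers, median 0.312). Permutation tests and correlations used log2(CPM + 0.5); 6 against 6 heifers cannot give an exact two-sided p below 0.00216, and correlations used 100000 resamples. No 2 samples of a group agreed within sampling noise. Members, lists and tests were chosen with earlier results of these data known. Named genes are the members, list genes called for the difference at 12 months or in gestation, the 3 called list genes with the smallest p per energy effect, and the genes most like each member; others, among them MX2, OAS1X, ZBP1, CD180, IRG1 and CAPN5, were named after their values were seen. The computations were tested on simulated counts. Alternatives were quasi-likelihood, DESeq2 1.42.0, other scalings, filters and sample sets, no genetic group, each heifer left out and the heifer as a block; classic edgeR dispersions were added after the data were seen. Positions and sequences are not given, since no genome of this build was used here.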

Additional observations from a re-analysis of the deposited data

Results flagged for a closer look

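In groups of 6 heifers, 3 of 16 groups of SELE and PLAC8 values held a heifer whose gap to the next, as a share of the group's range, was above Dixon's 95% limit. That limit, passed by about 1 in 20 groups by chance, holds for normally distributed values. It was applied to CPM and not on the log2 scale, so that rate need not hold here. PLAC8 at 12 months stood apart in heifer 24 of LPHE, at 61.3 CPM, and in heifer 1 of HPLE, at 32.6 CPM. SELE in gestation stood apart in heifer 2 of HPHE, at 71.9 CPM.

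The difference of the energy effects at 12 months passed an FDR of 0.1 by edgeR's likelihood ratio test for CXCL10 (4.76 on the log2 scale), UBD (2.47) and CD180 (3.44), and by quasi-likelihood for none of the 3. Over all genes 0.0750% were called. The 3 genes could be named only through the study's lists from these samples, so these calls are no independent evidence.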

How the results depend on the processing

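Of 738 alternative values for SELE and PLAC8, 715 were counted as unchanged. For the diet differences at 12 months, which carry no test, this refers to direction and not to a call, so it says nothing about their significance. For the relations between levels it refers to direction and the unadjusted permutation p, and for the rest to direction and call. Signs turned only for small gestation differences and 1 at 12 months, none of them past the threshold. With single heifers left out, SELE ranged from -0.028 to 0.80 for HPHE-HPLE in gestation, from -0.41 to 0.53 for HPHE-LPHE and from -0.27 to 0.17 for the genetic group. PLAC8 ranged from -0.077 to 0.42 for the difference of the energy effects in gestation, from -0.23 to 0.21 for HPHE-LPHE, from -0.0072 to 0.33 for HPLE-LPLE, from -0.015 to 0.23 for the genetic group, and from -0.13 to 0.44 for the genetic group at 12 months. With all 48 samples in 1 fit, SELE was -0.065 for HPHE-LPHE and 0.59 for the genetic group, a value shared by both ages. With a pseudocount of 0.1 the mean log2 difference of PLAC8 between HPHE and LPHE in gestation was 0.00544. The cause was not tested.

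With the heifer as a replicate block, the change with time was 1.81 for SELE and -0.43 for PLAC8. In the 12 month difference of the energy effects, CXCL10 was called in 9, UBD in 9 and CD180 in 18 of 24 fits without 1 heifer. Over the same fits the number of genes called ran from 607 to 2272 for LPHE-LPLE, from 3 to 78 for HPHE-HPLE and from 1 to 30 for the difference of the energy effects; in gestation it ran from 29 to 564 and from 35 to 336 for the energy effects. Quasi-likelihood called 0 genes in every gestation contrast within an age. With classic dispersions, added after the data were seen, the counts of genes called for the 3 energy contrasts at 12 months stayed within 1.5 times those reported. SELE had no value at 12 months where at least 10 counts in every sample were required.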
